A study of Mus musculus with 4 samples.

Results

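The 10 genes described here belong to insulin synthesis, processing and granule cargo. They are the hormone genes Ins1, Ins2 and Iapp, the processing genes Pcsk1, Pcsk2, Cpe and Scg5, and the granule genes Slc30a8, Chga and Chgb. They were named by symbol and set against the 21900 protein-coding genes of the reference. N6-methyladenosine (m6A), a methyl mark on adenosines of RNA, was mapped in MIN6 cells, a mouse insulinoma line of C57BL/6 origin used as a model of the pancreatic beta cell. The cells received a control vector or a vector that expresses GR, by lipid transfection of 10 µg of plasmid in each dish, and were lysed for RNA after 24 hours. The labels do not spell out GR, taken here to be the glucocorticoid receptor, and do not give its promoter. There were 4 libraries, an input and an anti-m6A pulldown in either arm, so that no value below has a replicate check. The deposited tables compare the arms and hold no value per library: sequencing depth, RNA level, and the size and direction of an m6A change are all unknown for these genes, and the beta-cell identity of the cells could not be checked on marker levels.

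Preproinsulin enters the endoplasmic reticulum, is folded there as proinsulin, and is sorted into secretory granules. In the maturing granule the prohormone convertases encoded by Pcsk1 and Pcsk2 cut proinsulin at pairs of basic residues, carboxypeptidase E (Cpe) trims the exposed basic residues, and the zinc transporter ZnT8 (Slc30a8) brings in the zinc with which insulin crystallises. The chromogranins Chga and Chgb are acidic proteins of the granule core, and 7B2, the product of Scg5, is the chaperone of the Pcsk2 enzyme. Mice carry a pair of insulin genes, Ins1 and Ins2, of closely similar sequence.

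The main source was a table of genes related to differential m6A peaks between GR and control, called the gene table below. It has 1 gene ID, symbol and set of protein domain names per line, and a gene can be on several lines. What a line stands for is not given, and a line carries no position, size or direction. Of the 10 genes, 7 were in the gene table, on 19 lines in all, which is 70.0% (exact Clopper-Pearson 95% interval 34.8% to 93.3%, counting error only). Over all protein-coding genes, 25.2% were in it. That background was not limited to genes expressed in MIN6 cells, since no RNA level is known here. At 2 or more lines the count was 5 of 10 genes, beside 11.2% of all protein-coding genes. The genes were chosen with earlier results of these data known, so these shares are a description and were not tested. Ins2, Iapp and Cpe were absent by gene ID and by symbol.

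Absence from the gene table does not show that a transcript lacked a differential peak. A separate deposited table gives peaks of 22 autophagy genes, and 13 of those were not in the gene table, while 9 were. None of the 10 insulin-pathway genes is in that autophagy table, so no peak position is known for any of them.

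Of the 3 hormone genes, 1 was listed (33.3%, exact 95% interval 0.840% to 90.6%), beside 25.2% of all protein-coding genes. The hormone share was the lowest of the roles, with an interval that overlaps those of the processing and granule genes. Ins1, on chr19:52264297-52265015 (GRCm38.p6, the assembly behind mm10), was on 1 line. Ins2, on chr7:142678656-142679726, was on 0 lines, as was Iapp, the gene for islet amyloid polypeptide that is secreted with insulin, on chr6:142298425-142303820. The single Ins1 line therefore stood for all hormone lines of the set. Ins1 spans 719 bases and Ins2 1071 bases, and both belong to the shortest of 10 equal classes of protein-coding genes by span, in which 5.02% of genes were listed. Iapp, at 5.40 kb, belongs to a class in which 32.1% were listed. How reads that match both insulin genes were assigned is not given in the sources used here, and whether the Ins1 line contains Ins2 signal was not tested. Iapp lies wholly inside the span of Slco1a5, an organic anion transporter gene, which was also on 0 lines.

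Of the processing genes, 3 of 4 were listed, on 6 lines. Pcsk2 (chr2:143546133-143816284), the convertase often called PC2, was on 3 lines, a number that 19.4% of listed protein-coding genes reached or passed. Pcsk1 (chr13:75089420-75134861), its partner PC1/3, was on 1 line. Scg5 (chr2:113776313-113829091), whose product keeps the PC2 precursor from acting too early, was on 2 lines. Pcsk2 and Scg5 thus each had more lines than Pcsk1, and Cpe (chr8:64592542-64693109), the enzyme that acts after both, had none. The span of Pcsk2 overlaps 3 long non-coding RNA genes, Pcsk2os2, on 1 line of its own, and Pcsk2os1 and Gm52527, on 0 lines. Whether peaks in the overlapped part were assigned by strand is not given in the sources used here. Pcsk2 is the longest of the 10 genes at 270 kb and belongs to the class of longest genes, where 17.4% were listed. For Pcsk1 and Scg5 the class share was 25.4%, and for Cpe it was 23.8%.

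All 3 granule genes were listed, on 12 of the 19 lines. Slc30a8 (chr15:52295553-52335798) led the set with 6 lines, a number that 126 of the 5526 listed protein-coding genes (2.28%) reached or passed. Chga (chr12:102554941-102565027) and Chgb (chr2:132781642-132795079) had 3 lines each, reached or passed by 1071 listed genes (19.4%). The median of listed protein-coding genes was 1 line, and 55.5% of them were on a single line. By span, 25.4% of genes in the class of Slc30a8, 31.6% in that of Chga and 32.6% in that of Chgb were listed. Thus the granule genes had 3 to 6 lines, the processing genes 0 to 3 and the hormone genes 0 or 1. Each of Slc30a8, Chga and Chgb had at least as many lines as every hormone and processing gene, with a tie at 3 between Pcsk2 and the chromogranins. The same line repeated for a gene holds the same text, so the repeats could not be told apart. With identical lines counted once, the median of listed genes of the set went from 3 lines to 1, every listed gene had 1 line, and the order of the roles by lines was gone, with only the counts of listed genes (1 of 3, 3 of 4 and 3 of 3) left.

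**Figure D1:**
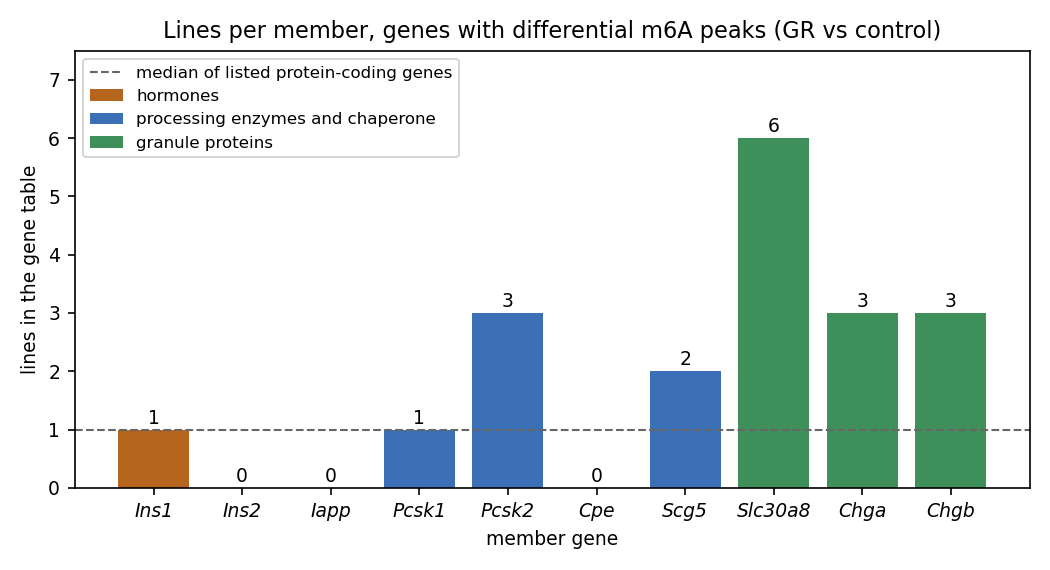
Bars give the number of lines (vertical axis) of each of the 10 genes in the gene table, coloured by role, and the dashed line is the median of listed protein-coding genes, 1 line. Slc30a8 stands highest at 6 lines, Pcsk2, Chga and Chgb are at 3, and Ins2, Iapp and Cpe are at 0.

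The 10 genes lie on 8 chromosomes, with Scg5, Chgb and Pcsk2 all on chromosome 2 and far apart there. RefSeq has 1 curated transcript for each gene except Ins2, with 3. The domain names deposited with each line group the listed genes into families. Pcsk1 and Pcsk2 share the kexin/furin catalytic domain with 1 other listed gene, Pcsk7, a convertase of the trans-Golgi network that was on 1 line. Chga and Chgb share the chromogranin A/B/C name with Scg2, the secretogranin II gene, on 2 lines. The cation efflux protein name of Slc30a8 was also carried by Slc30a4 (2 lines) and Slc30a6 (1 line). Insulin-like names were deposited for Ins1, Igf2, Insl3 and Insl6. Scg5 was the only listed gene with the 7B2 precursor name.

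Other genes of the pathway were taken from fixed lists. Among 18 further genes of prohormone processing and granule cargo, 7 were listed (38.9%), with a median of 1 line. Vgf, the precursor of several granule peptides, was on 4 lines. Scg2 was on 2 lines, and Scg3, Pcsk7, Nucb2 and Npy were on 1 each. The 11 genes that were absent included Pcsk1n, which encodes the inhibitor of the Pcsk1 enzyme, the amidating enzyme gene Pam, the convertase gene Furin, the carboxypeptidase gene Cpd, and the granule membrane genes Ptprn and Ptprn2. For Ptprn, the pathway table described below assigns its Entrez number to another gene ID, the unnamed model Gm28294, which was on 2 lines. The same happened for Slc30a1 (1700034H15Rik, 4 lines) and Hsp90b1 (Gm15344, 1 line). The 10 insulin-pathway genes were not part of that search. Matching them by any identifier left 27 pathways with any of them, the same number as by gene ID. A second ID within those 27 would not show in that count.

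Entry and folding of proinsulin in the endoplasmic reticulum had 8 of 17 genes listed (47.1%). Ssr1, a translocon-associated protein gene, was on 4 lines. Hspa5, the gene of the chaperone BiP, was on 2, as were Spcs1, a subunit of the signal peptidase complex, and Sdf2l1. The disulfide isomerase genes P4hb and Pdia4 were on 1 line each, as were Hsp90b1 and Qsox1, while Pdia3, Pdia6, Sec61a1, Sec61b, Dnajc3, Creld2, Prdx4 and both Ero1 oxidase genes were absent. Of 9 other zinc transporter genes, 2 (22.2%) were listed, namely Slc30a4 and Slc30a6, with no more than 2 lines against the 6 of Slc30a8. Of 7 hormone genes of other islet or gut cells, 2 (28.6%) were listed, Cck on 4 lines and Gcg on 1. The zinc transporter and hormone shares were thus near the 25.2% of all protein-coding genes. Cck thus had more lines than Ins1, whereas Sst, Ppy, Pyy, Ghrl and Gast, like Ins2 and Iapp, had none. In lists of cell type markers, 8 of 10 beta-cell genes were listed, 5 of them outside the insulin pathway set (Mafa, Pdx1, Nkx6-1, Slc2a2 and G6pc2). Of 5 alpha-cell markers 2 were listed (Gcg and Ttr), and of 2 delta-cell, 1 PP-cell, 4 acinar and 2 duct markers none was. A line in the gene table is not a level of RNA, so these counts say nothing on which cells were present.

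**Figure D2:**
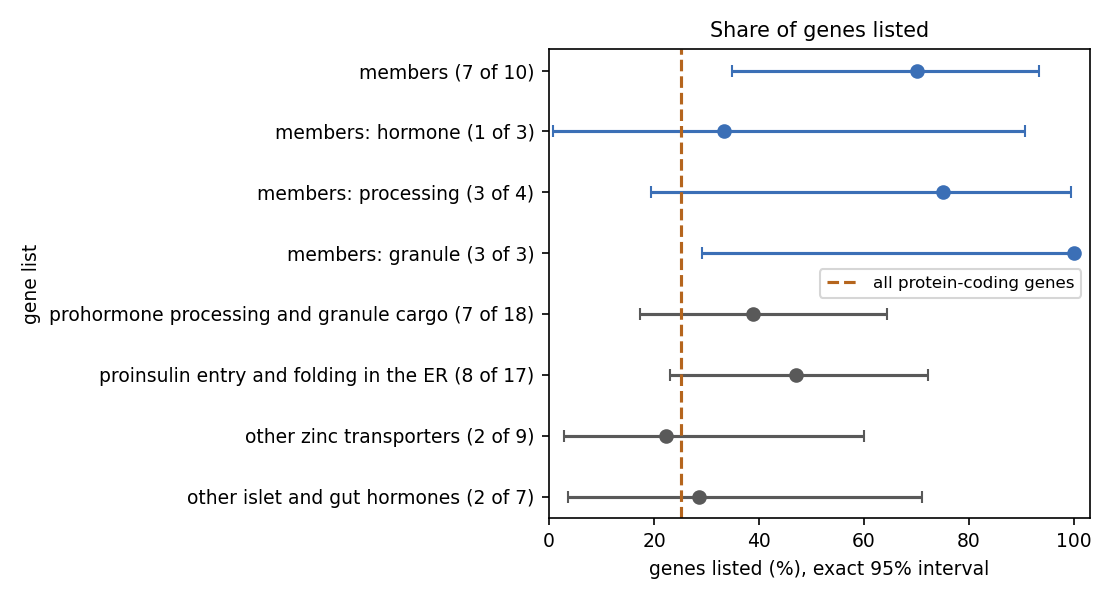
Points give the percent of genes in each list that were in the gene table, with exact 95% intervals as bars. The dashed line is the 25.2% of all protein-coding genes, with the 10 genes at 70.0% and their hormone, processing and granule groups at 33.3%, 75.0% and 100%.

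The deposited Kyoto Encyclopedia of Genes and Genomes (KEGG) table lists pathways with the gene IDs found in each, and tests whether the input holds more of a pathway than a background. By gene ID, Ins1 was the only one of the 10 genes in any pathway, and it was in 27 of 290. The other 6 listed genes were in 0 pathways, and whether KEGG annotates them to any pathway was not checked. Among 2333 gene IDs in the table, 50 (2.14%) were in at least as many pathways as Ins1, and the median was 2. Of the 27 pathways, 24 (88.9%) passed an adjusted p of 0.05 by the authors' deposited table, as did 66.9% of all pathways. A single line in the gene table thus entered 27 rows, and the p-values of those rows come from their other genes as well.

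By rank of p in the authors' deposited table, pathways with Ins1 ran from place 2, HIF-1 signaling, to place 265, type I diabetes mellitus. These p-values stand beside counts of input IDs, several of which can map to the same gene. No p was computed for distinct genes. Among the diabetes pathways, maturity onset diabetes of the young had 16 input IDs against 27 background genes (59.3%), at an adjusted p of 0.00117 by the authors' deposited table. Those 16 IDs map to 15 Entrez genes. The basic helix-loop-helix factor gene Bhlha15 led them with 8 lines, followed by Mafa, Nkx2-2 and its antisense gene Nkx2-2os with 4 each. Ins1 was at the low end with 1 line, as were Hnf4a, Hes1 and the unnamed model Gm18981. Type II diabetes mellitus had 23 IDs against 50 (46.0%), and the authors' deposited table gives it an adjusted p of 0.00131. Type I diabetes mellitus had 13 IDs against 77 (16.9%), and its adjusted p was 0.734 by the authors' deposited table. Beside Ins1, its 13 IDs included Hspd1, the Ptprn-assigned model Gm28294, and histocompatibility genes such as H2-T22 (3 lines), H2-K1 and H2-D1.

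The insulin secretion pathway had 36 input IDs against 86 background genes at an adjusted p of 2.51e-04 by the authors' deposited table, and the 36 IDs map to 33 Entrez genes. Pclo, an active-zone scaffold gene, had the most lines there (4). The potassium channel subunit gene Kcnj11, the glucose transporter gene Slc2a2, Atp1b3 and the unnamed model Gm26918 had 3 each. Insulin resistance had 50 IDs against 111, and its adjusted p was 4.33e-06 by the authors' deposited table. Prolactin signaling had the largest share of distinct genes among the 27, with 44 Entrez genes against 74 (59.5%), at an adjusted p of 3.73e-08 by the authors' deposited table. Beside the HIF-1 and prolactin pathways, the signaling pathways with Ins1 were FoxO, Rap1, Ras, AMPK, cGMP-PKG, phospholipase D, mTOR, PI3K-Akt and insulin signaling, and the distinct-gene shares of these 9 ran from 32.0% (Ras) to 44.2% (mTOR).

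The other pathways with Ins1 that passed 0.05 by the authors' deposited table were non-alcoholic fatty liver disease, prostate cancer, oocyte meiosis, progesterone-mediated oocyte maturation, regulation of actin cytoskeleton, both longevity regulating pathways, regulation of lipolysis in adipocytes and aldosterone-regulated sodium reabsorption. Ovarian steroidogenesis and regulation of autophagy were above it, with adjusted p of 0.148 and 0.213 by the authors' deposited table. The median share of distinct Entrez genes was 42.2% over the 27 pathways and 35.1% over all 290. In 6 of the 27 the number of distinct genes equalled the number of input IDs. The widest gap in the authors' deposited table was in HIF-1 signaling, where 102 IDs map to 53 genes (92.7% against 48.2% of 110).

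**Figure D3:**
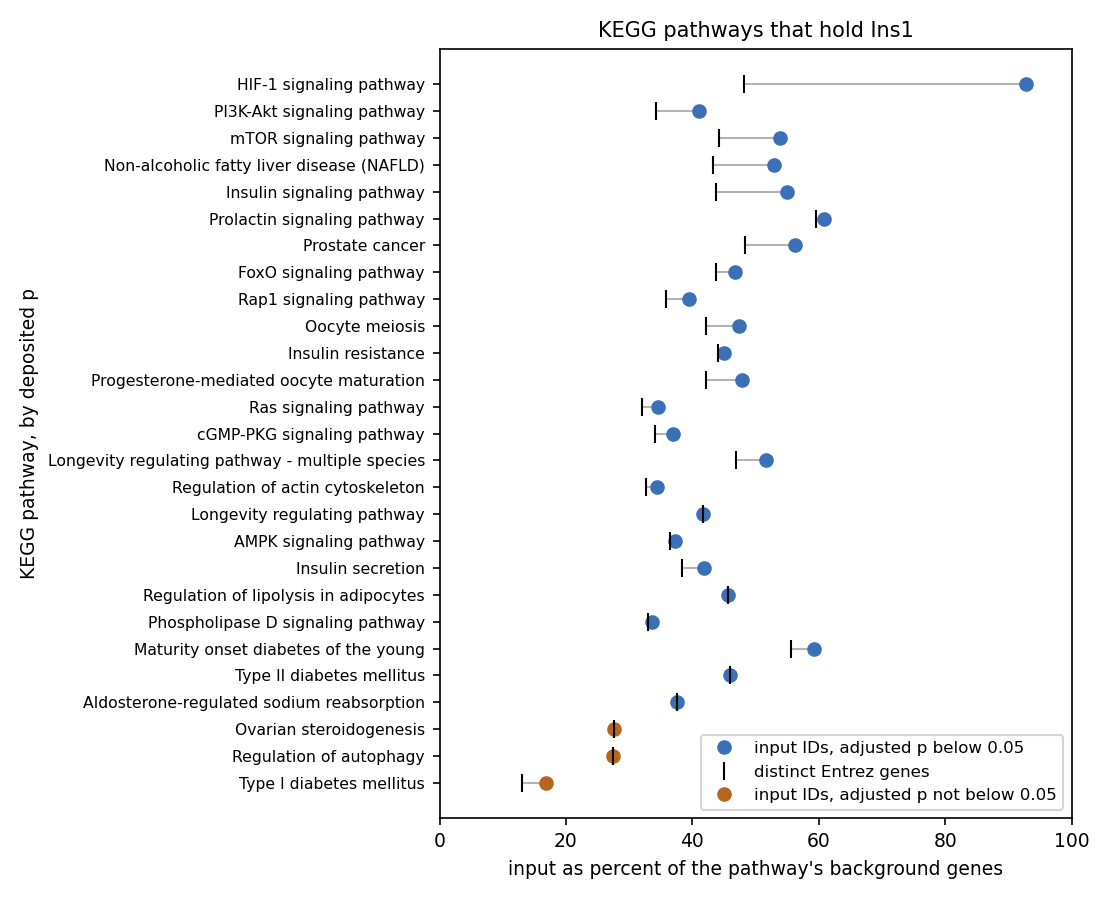
The 27 KEGG pathways that hold Ins1, in order of the deposited p, with the input as a percent of background genes (horizontal axis), counted by gene ID (dots) or by distinct Entrez gene (ticks). Orange dots mark the 3 pathways above an adjusted p of 0.05, and HIF-1 signaling shows the widest distance between dot and tick, 92.7% to 48.2%.

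The deposited Gene Ontology (GO) table gives for each of 16568 terms the listed genes and the number of background genes. All p-values in it are 1 in the authors' deposited table, so that terms are described by counts alone. Listed genes were counted from the gene IDs named beside each term. In all, 5409 IDs were named, which is 26.0% of the 20770 background genes. Every row of the authors' deposited table gives a list size of 10022 instead (48.3% of the background), and the source of the gap was not found. At least 1 of the 10 genes was in 504 terms (3.04%), 310 of which held 1 of them and 194 at least 2. Chga was in 304 terms, Ins1 in 175, Slc30a8 in 165, Pcsk2 in 89, Scg5 in 86, Pcsk1 in 72 and Chgb in 20. The median gene ID of the table was in 82 terms. Chga and Chgb, alike in lines and domains, thus stood at opposite ends of the set by number of terms. Chga was alone among the 10 genes in 150 of its terms, among them terms on mast cell, heart contraction and catecholamine biology. By contrast, every term with Chgb also held Chga, Ins1 and Pcsk1.

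All 7 listed genes came together in 16 terms. The smallest was secretory granule, where 87 of 385 genes were listed (22.6%, exact 95% interval 18.5% to 27.1%). That interval holds the 26.0% of the whole table. Secretory vesicle followed with 146 of 565 (25.8%), and the next terms were broad ones, from cytoplasmic vesicle (518 of 1753, 29.5%) and vesicle (557 of 1876, 29.7%) to endomembrane system (1160 of 3762, 30.8%), cytoplasm (3351 of 10665, 31.4%) and membrane-bounded organelle (3634 of 10932, 33.2%). Thus 7 of the 10 genes named here were listed, while the granule term that holds them had a listed share near that of all named IDs. The other 80 listed genes of the secretory granule term had a median of 1 line, 12 of them (15.0%) were on 3 or more lines, and none reached the 6 lines of Slc30a8. The nearest were Clk3 and Skil with 5 lines, and Cel, Ebag9 and Vgf with 4.

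The terms on hormone maturation, granule lumen, insulin, hormones, secretion and zinc were chosen after their values were seen, except those given as the largest share of a gene. That largest share was taken over terms of at least 10 background genes. Being the maximum over the terms of a gene, it is high by selection. Over all GO background genes the share was 26.0%. Small terms on hormone maturation held the processing genes. The peptide hormone processing term listed 3 of 17 genes (17.6%), and these 3 were Pcsk1, Pcsk2 and Scg5. The insulin processing term listed 1 of 3, and its listed gene was Pcsk2, as in enkephalin processing (1 of 2) and islet amyloid polypeptide processing (1 of 1). The largest share for Pcsk2 was in insulin metabolic process, which listed 4 of 10 genes, Pcsk2 and Pax6 on 3 lines each, Nucb2 and Ceacam1 on 1. Serine-type endopeptidase activity, with Pcsk1 and Pcsk2, listed 31 of 199 (15.6%). The largest share for Scg5 was in unfolded protein binding, with 40 of 97 (41.2%).

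Ins1 met the convertases in the secretory granule lumen term, where 5 of 14 genes were listed: Pcsk2 on 3 lines, and Ins1, Pcsk1, the glucagon gene Gcg and the neuroserpin gene Serpini1 on 1 each. The largest share for Pcsk1 was in cytoplasmic vesicle lumen, where 7 of 18 were listed (38.9%). The largest share for Ins1 was in endocrine pancreas development, with 24 of 57 (42.1%). Insulin receptor binding, a term of 25 genes, listed 10, among them Ins1, Igf2, Irs1 and Irs2. Hormone activity listed 40 of 127 (31.5%).

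Terms on zinc and on secretion held Slc30a8 and Chga. Zinc ion transmembrane transport listed 6 of 25 genes (24.0%), with Slc30a8 on 6 lines, Slc39a3 on 3, Slc30a4 on 2, and Slc30a6, Slc39a6 and Slc39a8 on 1. Sequestering of zinc ion listed 2 of 7, Slc30a8 and Slc30a4. The largest share for Slc30a8 was in response to glucose, with 92 of 228 (40.4%), and that for Chga was in myeloid leukocyte cytokine production, with 12 of 27 (44.4%). The GO term insulin secretion (79 of 211, 37.4%) held Slc30a8 and Chga and not Ins1, whereas the KEGG pathway of that name held Ins1 and neither of them. Chga was also in negative regulation of insulin secretion (19 of 59, 32.2%) and Slc30a8 in positive regulation of insulin secretion (29 of 81, 35.8%). Hormone secretion, with 120 of 341 genes (35.2%), held Scg5, Slc30a8 and Chga. Of 40 terms with insulin in their name, 7 held one or more of the 10 genes.

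**Figure D4:**
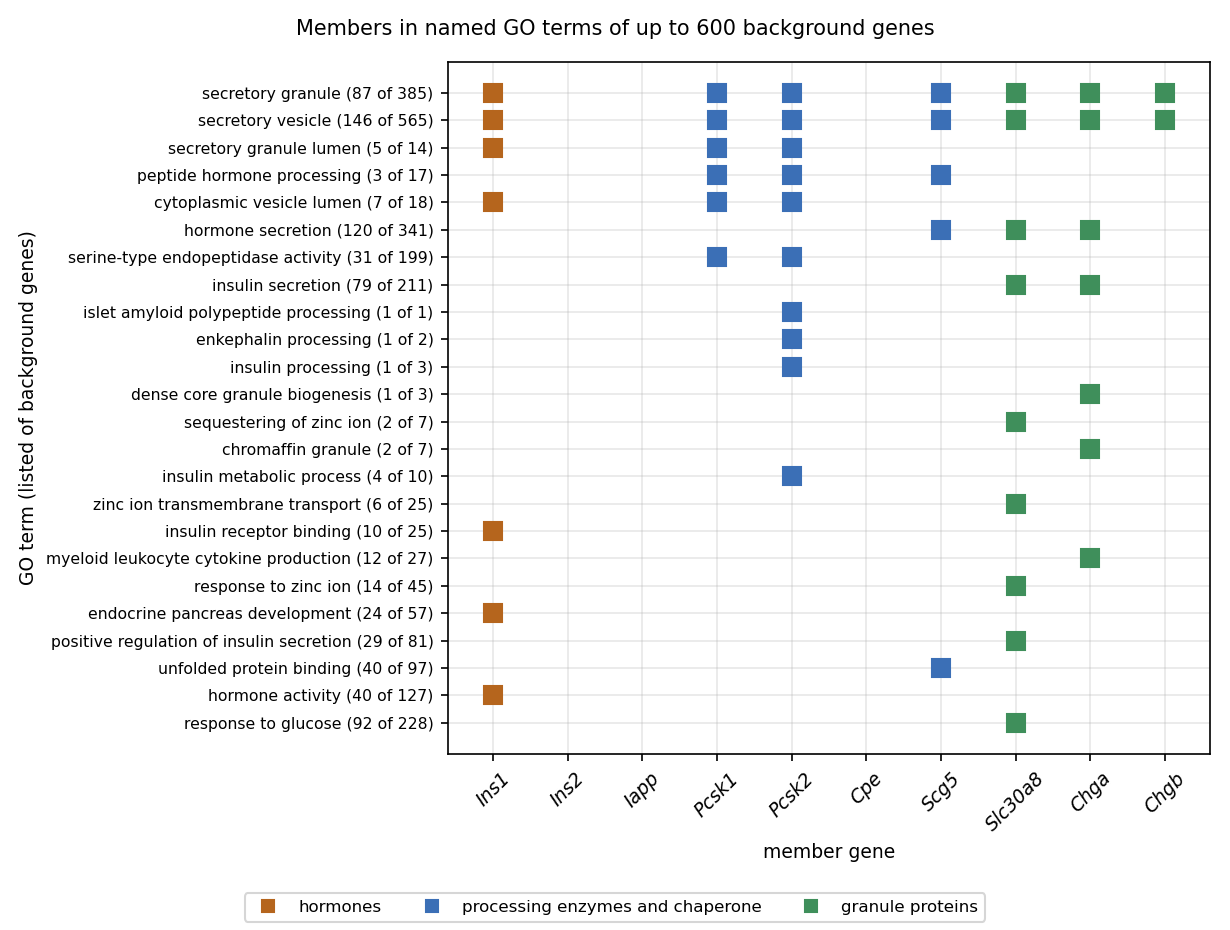
Squares mark which of the 10 genes (horizontal axis) is in each named GO term except the broadest (vertical axis, with listed and background genes in brackets), coloured by role. Secretory granule and secretory vesicle hold all 7 listed genes, the 3 processing genes meet in peptide hormone processing, and the columns of Ins2, Iapp and Cpe are empty because absent genes enter no term.

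Likeness was measured as the Jaccard index of GO terms held, the terms shared by 2 genes over the terms held by either, across all 16568 terms. It compares annotations of listed genes and no m6A value. Within the set, Pcsk1 and Pcsk2 were most alike, with 63 shared terms and an index of 0.643. Next were Pcsk1 and Scg5 at 0.328. Over all listed genes, Pcsk1 and Pcsk2 were each other's nearest gene, and Pcsk7 was the next for both, at 0.448 and 0.388. Nearest to Slc30a8 were the mitochondrial calcium uniporter gene Mcu (0.482) and Slc30a4 (0.472), nearest to Chga were Cartpt and Adra2a (both 0.347), and nearest to Ins1 was Tab2 (0.497). Scg5 was nearest to Exoc3l (0.402). The nearest gene to Chgb was Tex22 (0.682), an index that rests on 15 shared terms.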

How the data were processed

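Input and m6A-immunoprecipitated RNA of 4 libraries, 1 per group, was sequenced in pairs of reads, per the labels' protocols. Per the submitters' processing notes, the tools were BWA (0.7.12) and HOMER (4.9.1), with the build mm10. The caller of differential peaks and its thresholds are not given in the sources used here. The KEGG p-values were deposited by the authors, per the file headers, from a hypergeometric or Fisher exact test with Benjamini-Hochberg adjustment, and the GO table holds the p-values the authors deposited for each term.

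The members and lists were chosen with earlier results of these data known. Lines of the gene table (17052 lines, 9225 gene IDs) were counted per Ensembl ID, with names for 9217 IDs from a table of gene IDs, and older names matched through RefSeq synonyms. Protein-coding genes, spans and coordinates came from RefSeq for GRCm38.p6, joined by symbol. In the GO data 63 overflow lines were joined to their terms, after which every gene list had its deposited length. No test was run, as each group has 1 library. Named genes were all members and every listed gene of the fixed lists, except 1 that is not reported here. Named GO terms were the 10 with the most members (ties by fewest background genes) and, per listed member, the term of at least 10 background genes with the largest listed share. The other GO terms named were chosen after their values were seen. The 3 genes with the highest Jaccard index per listed member were computed. Counting and joining were tested on simulated tables. Intervals were computed with SciPy 1.17.1 and figures drawn with Matplotlib 3.10.9, under Python 3.11.15. Alternatives covered matching, the number of lines, the reference genes, identical lines, term size and the deposited threshold.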

Additional observations from a re-analysis of the deposited data

How the results depend on the processing

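The count of 7 listed genes was 7 by deposited symbol, 5 at 2 or more lines and, in a setting added after the data were seen, 6 without Pcsk2, whose span holds another listed gene. The background share of 25.2% was 26.7% without unnamed models, 26.0% among genes with spans from 719 to 270152 bases, the range of the 10 genes, and 26.0% over the GO background (added after the data were seen). The median of 3 lines per listed gene became 1 when identical lines were counted once, since every repeat of a gene is identical. It was 1 for the other listed genes of the secretory granule term, which is another set of genes, added after the data were seen. The 27 KEGG pathways were 24 when only those past 0.05 by the authors' deposited table were kept, and 27 when any identifier was matched. The 504 GO terms were 201 with 10 to 500 background genes and 194 with at least 2 of the genes, which only drops terms. Unknown depth limits all absences. No paired analysis was possible because each group has 1 library and the tables hold no value per library.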
